A study of Mus musculus with 60 samples.

Results

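Acetylation of lysine 9 of histone H3 (H3K9ac) was compared between lumbar dorsal root ganglia taken after dorsal column axotomy (DCA) and after laminectomy (Lam), the surgery that opens the vertebra without cutting the axons. The comparison rests on 4 chromatin immunoprecipitation (ChIP-seq) samples of the 60 samples in the series, 2 after DCA and 2 after Lam. The authors pooled the 2 samples of a surgery before peaks were called, so each surgery has 1 peak list, and a peak was counted as shared when it overlapped a peak of the other list by 1 bp or more. All mice were C57BL/6 and 6 to 8 weeks old at surgery, and ganglia L4 to L6 were collected 24 h after it from pools of 10 mice a sample, 20 mice a list. The series has 2 sciatic nerve surgeries as well, a sham operation (Sham) and an axotomy (SNA), each with its own H3K9ac list of 2 pooled samples. The background of the comparison was the difference between Lam and Sham, the surgeries in which no axon was cut. A list has no replicate, so the values below carry no p-value and no SD, and intervals are 95% Wilson intervals that cover counting error only.

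H3K9ac is laid down by histone acetyltransferases and removed by histone deacetylases, and it is found mainly at the starts of active genes and, at a lower level, at enhancers. Neurons of the dorsal root ganglion send 1 branch of their axon to skin, muscle and organs and the other into the spinal cord. Cutting the spinal branch in the dorsal columns, unlike cutting the peripheral nerve, is known for evoking little regrowth and little of the growth programme in the neuron, and histone acetylation at growth genes has been studied as a step at which these injuries differ.

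The lists held 89647 peaks after DCA, 50667 after Lam, 50332 after Sham and 74652 after SNA. They covered 64.2 Mb, 24.7 Mb, 27.8 Mb and 43.7 Mb. Read totals are not in the lists, but the reads behind each peak could be recovered from its fold and p (whole reads within 0.02 reads for at least 99.998% of the peaks of each list). Before scaling, the lowest common background stood at 25.0 to 28.3 reads per kb in all 4 lists. The caller counted 1 read as 0.918 in DCA, 0.610 in Lam, 0.400 in SNA and 0.315 in Sham, so that the background entered the test at 26.0 reads per kb in DCA and 15.6 in Lam. The same pile of reads therefore reached a higher −log10 p in DCA than in Lam, and the part of this scaling in the differences below was tested only through the settings given with them. Peak names carry ranks up to 173439 in DCA and 68058 in Lam. Of the weakest 10% of these ranks 7.83% were in the DCA list and 38.0% in the Lam list, against 99.96% and 99.87% of the strongest 10%. The rule that chose them is not given in the sources used here.

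Markers of ganglion glia carried the mark at their starts in each list: 9 of 10 satellite glia genes in both DCA and Lam, and 12 of 12 Schwann cell genes in DCA and 10 in Lam. Of 20 sensory neuron genes 7 had a peak in DCA and 3 in Lam, so most neuronal markers had none within 1 kb of the start in either list. Macrophage genes had 1 of 12 in DCA and 0 in Lam, and skeletal muscle genes 2 of 10 and 0. Of all protein-coding genes 59.9% had a start peak in DCA and 51.1% in Lam, so the DCA list held more starts over all genes as well. Fewer cells of a type and less acetylation per cell cannot be told apart in whole ganglia.

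Of the DCA peaks, 61.8% (61.5 to 62.1%, 55419 peaks) had no partner in the Lam list. In the other direction 18.5% of the Lam peaks (9378) had none in DCA. Between the control surgeries the shares were 40.8% of Lam peaks without a Sham peak and 43.2% of Sham peaks without a Lam peak, so a list from a surgery without axotomy also left many peaks unmatched. The DCA share was above this background and the reverse share below it. Cutting each list to the size of the smaller brought the DCA and Lam shares to 45.9% and 31.2%, while the control pair stayed at 40.8% and 43.5%. With lists of equal size the DCA share thus stood close to the shares of the control pair.

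**Figure D1:**
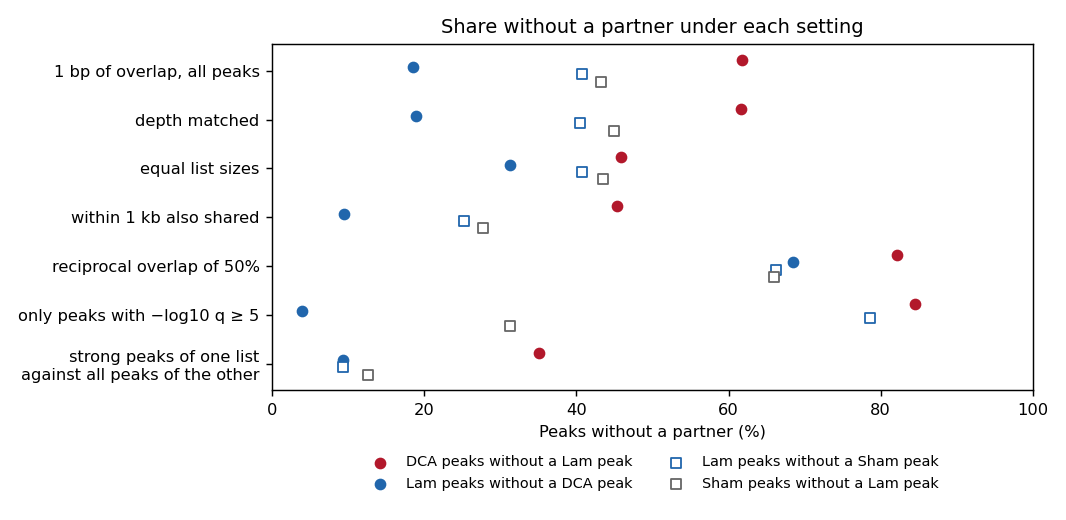
Share of H3K9ac peaks without a partner (x axis, percent of the first-named list) under each setting (y axis): filled circles are DCA and Lam against each other, open squares Lam and Sham. DCA peaks without a Lam peak made up 61.8% with all peaks and 35.1% when only strong DCA peaks were set against every Lam peak. Of strong Lam peaks 9.30% had no Sham peak, under a stricter limit. The setting named depth matched matches the caller's scaled background.

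The plot of shares under each setting shows how far the choice of peaks moves them. When the first list was limited to peaks with a −log10 p of at least 5 at the background level of the shallower list, and set against every peak of the other, 35.1% of 36679 DCA peaks had no Lam peak and 9.38% of 26393 Lam peaks had no DCA peak. By the same rule, chosen after the data had been seen, 9.30% of Lam peaks had no Sham peak and 12.6% of Sham peaks had no Lam peak, and for SNA, the other axotomy, 13.9% had no Sham peak. With this rule the DCA share was the highest of these 5. The limit was stricter in the pairs with Sham, whose scaled background was lower (7.89 reads per kb against 15.6 in Lam). It kept 7528 Lam, 13911 Sham and 18650 SNA peaks there, so the 5 shares come from unlike parts of the lists. With lists of equal size, by contrast, the DCA share was 45.9% against 43.5% of Sham peaks without a Lam peak.

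Unmatched peaks were concentrated among the weak ones. Each list was cut into 10 groups of equal size by −log10 p. In the strongest group of DCA peaks, with a −log10 p of 16.2 to 61.4, 4.64% had no Lam peak. The share reached 25.0% in group 2, 61.0% in group 4 and 85.6% in group 9. In the Lam list it went from 0.296% of the strongest group to 35.3% of group 9. In the strongest group of Lam peaks 6.95% had no Sham peak, a higher share than the 4.64% of DCA peaks without a Lam peak, and from group 2 on the DCA share was the higher.

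**Figure D2:**
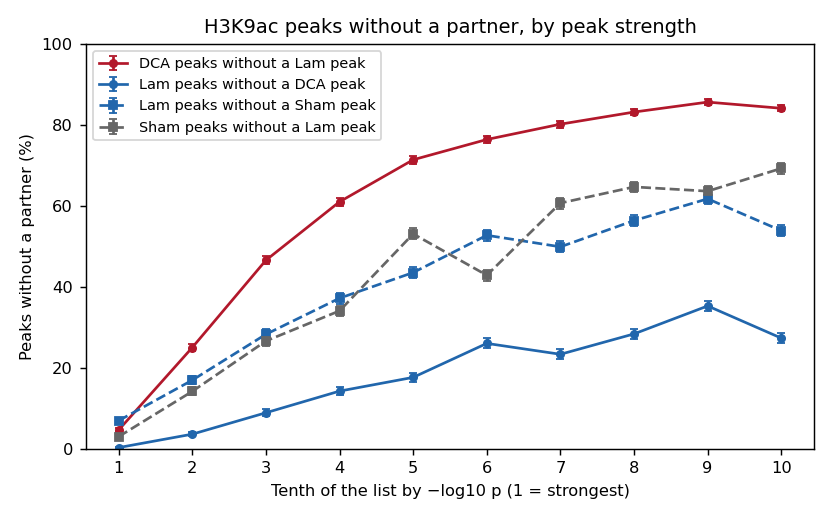
Share of peaks without a partner (y axis, percent, with 95% Wilson intervals) in each of 10 groups of a list ordered by −log10 p (x axis, 1 the strongest). The DCA line climbs from 4.64% to 85.6%, the line of Lam peaks without a DCA peak from 0.296% to 35.3%, and the 2 lines of the control pair (dashed) lie between them from group 2 on.

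The unmatched peaks lay away from gene starts. A peak within 1 kb of the start of a protein-coding gene was counted as at a gene start, and the other peaks as inside a gene or between genes. Of the DCA peaks at gene starts 29.7% had no Lam peak, against 70.2% inside genes and 69.2% between genes. For Lam peaks without a DCA peak the shares were 3.63%, 25.5% and 25.0% in the same order. The background had the same order of places, with 22.3%, 49.6% and 48.4% of Lam peaks lacking a Sham peak. Of the 55419 DCA-only peaks, 9.66% (9.41 to 9.91%) were at a gene start, 64.2% inside a gene and 26.1% between genes, whereas 37.0% of the shared DCA peaks were at a start.

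Both kinds of peak still gathered at starts relative to the ground between them. Shared DCA peaks had 36.5% of their summits per kb in the first 500 bp downstream of a start, and DCA-only peaks 4.99% per kb. From 10 to 20 kb downstream the densities were 0.631% and 0.898% per kb. The median distance of a summit to the nearest start was 13.4 kb for shared DCA peaks, 26.6 kb for DCA-only peaks and 37.2 kb for Lam-only peaks. Densities of DCA-only peaks were higher 2 to 5 kb downstream of the start (1.75% per kb) than 2 to 5 kb upstream (0.947% per kb).

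**Figure D3:**
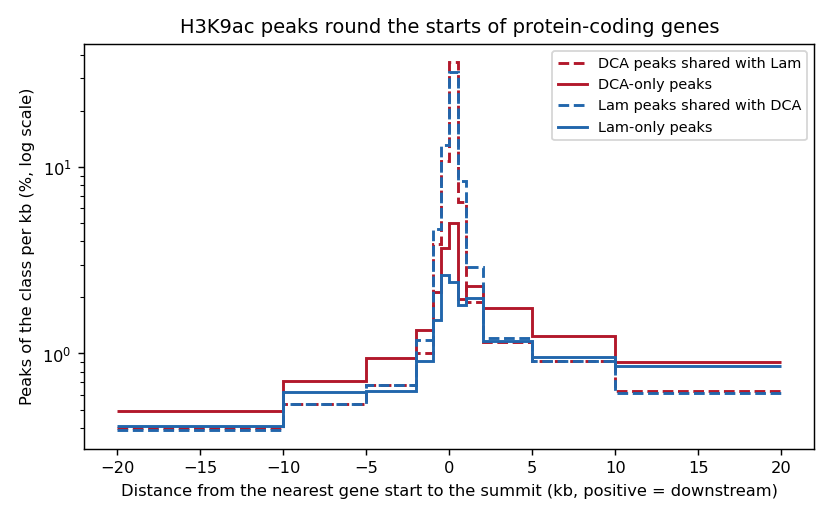
Density of peak summits (y axis, percent of the class per kb, log scale) by distance from the nearest start of a protein-coding gene with known strand (x axis, kb). The dashed lines of shared peaks reach 36.5% per kb (DCA) just downstream of the start, the solid line of DCA-only peaks 4.99% and that of Lam-only peaks 2.64% just upstream of it.

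DCA-only peaks were narrow and near other peaks. Their median width was 427 bp against 874 bp for the shared DCA peaks, their median fold over the caller's background 3.12 against 3.93, and their median summit 24 reads against 33. The nearest Lam peak was within 1 kb for 26.7% of them, at 1 to 10 kb for 46.3%, at 10 to 100 kb for 24.7% and farther for 2.30%. Most DCA-only peaks therefore stood beside acetylation that was present after laminectomy, at a median distance of 3.35 kb.

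A part of the DCA-only peaks was present in the other surgeries. Of these peaks 21.3% overlapped a Sham peak and 36.4% an SNA peak, against 71.0% and 83.6% of the DCA peaks shared with Lam. H3K27ac, another mark of active starts and enhancers, was called at 16.7% of the DCA-only peaks in the DCA list and at 32.0% in the Lam list, which is the longer H3K27ac list (67311 peaks against 46489). Open chromatin by ATAC-seq was called at 27.4% of them after DCA and at 26.6% after Lam. At the shared DCA peaks ATAC covered 60.1% and 59.1%. Places with H3K9ac in the DCA list alone were thus open about as often after laminectomy as after axotomy in these lists, and they held H3K27ac more often in the Lam list, as the shared DCA peaks did (77.1% in Lam and 56.3% in DCA).

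Lam-only peaks were few, weak and close to DCA peaks. Their median width was 271 bp and their median −log10 p 4.29, with 22 reads at the median summit. A DCA peak lay within 1 kb of 49.3% of them. Only 19.5% (1827 peaks) were also in the Sham list, while 38.6% were in the SNA list. Of the 1827 peaks present in both control surgeries and absent after DCA, 64.2% were within 1 kb of a DCA peak, 10.3% were at a gene start and 20.3% had H3K27ac in the DCA list.

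At gene starts the DCA list again held more. Of 21887 protein-coding genes 11051 had an H3K9ac peak within 1 kb of a start in both lists, 2065 in DCA only, 125 in Lam only and 8646 in neither. These are 9.43% and 0.571% of all genes. Between the control surgeries 1165 genes (5.32%) had a peak in Lam and not in Sham and 954 (4.36%) the reverse, so the DCA-only count was larger than either background count and the Lam-only count was smaller than both. With the rule for strong peaks the counts were 1102 (5.03%) and 44 (0.201%) beside 195 (0.891%) and 238 (1.09%) between the controls. The limit was stricter between the controls, where 7528 Lam peaks passed it, against 36679 DCA peaks in the other pair. These counts therefore come from unlike cuts. The other settings are given in the order DCA only, Lam only, Lam not Sham and Sham not Lam. The shares of genes were 31.4%, 0.114%, 16.4% and 2.44% with a −log10 q of 5 or more. They were 6.4%, 1.82%, 5.27% and 4.44% with lists of equal size, and 9.37%, 0.603%, 5.1% and 4.88% with matched scaled backgrounds. They were 9.0%, 0.553%, 4.87% and 4.24% when peaks up to 5 kb from the start counted, and 8.98%, 0.562%, 5.14% and 4.24% without starts whose peak reached a peak of the other list beyond the window. In each of these settings the DCA-only share was the highest of the 4 and the Lam-only share the lowest. Of the 2065 genes, 818 had a peak at the start in Sham and 883 in SNA, and 940 had one in DCA alone of the 4 lists. Of the 125 Lam-only genes 47 had one in Sham. A further 885 of 9533 long noncoding RNA genes (9.28%) had a peak at the start in DCA only and 102 (1.07%) in Lam only, close to the share of protein-coding genes in the DCA direction.

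The starts of the DCA-only genes were mostly open after both surgeries. ATAC peaks were present at 83.1% of them in both the DCA and the Lam list, at 5.18% in DCA only and at 4.41% in Lam only. H3K27ac was listed at 28.9% of these starts after DCA and at 44.7% after Lam, with 126 genes in DCA only and 452 in Lam only. Over all genes H3K27ac was at 525 starts in DCA only and at 2274 in Lam only, and among genes with H3K9ac in both lists at 320 and 1689, so Lam-only H3K27ac prevailed in those groups as well, in lists of which the Lam one is the longer for H3K27ac.

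The 12 DCA-only genes with the highest −log10 p were Nup43, Tmem161b, Gm5373, 2310061I04Rik, Gm52006, Map3k20, Gm2137, Yaf2, Zscan10, Gm46319, Spatc1 and Fzr1, at −log10 p of 45.0 to 31.1 in DCA. For Nup43, Tmem161b, 2310061I04Rik, Yaf2 and Spatc1 no strand was known, and either end of the gene stood for its start. The peaks of Nup43 and Spatc1 lay beyond the gene end of higher coordinate, which need not be the start. At 7 of the 12 (Nup43, Gm5373, Gm52006, Gm2137, Zscan10, Gm46319 and Spatc1) the wide DCA peak reached a Lam peak outside the 1 kb window, so these calls turned on where a peak ended. Over all 2065 genes this held for 99, and 1966 genes had no such contact. The strongest 15 of those 1966 are therefore described too, a choice made after their values were seen. Of these 15 genes, 12 had a peak at the start in Sham and 12 in SNA, and 14 were open after both DCA and Lam. H3K27ac was listed at 12 of these starts in DCA and at 13 in Lam.

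Map3k20, a stress-activated kinase upstream of p38 and JNK, had a start peak in DCA alone, at a −log10 p of 33.5, 6.35-fold over background and 75 reads at the summit. Its nearest Lam peak was 11.2 kb away, and neither Sham nor SNA had a peak there. Rab15, a GTPase of endosomal traffic, was likewise in DCA alone (30.0), and so was Raly, an RNA-binding protein of the hnRNP family (27.2). These 3 of the 15 were absent from every other H3K9ac list. H3K27ac was listed at the Map3k20 and Rab15 starts in Lam and not in DCA, and at the Raly start in both.

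The other 12 had the mark in at least 1 further list, where 1 read weighs less, so their reads at the summit are given with the −log10 p. Fzr1, an activator of the anaphase-promoting complex that is also active in neurons, stood at 31.1 in DCA (65 reads), 6.71 in Sham (43 reads) and 4.82 in SNA (29 reads), and its nearest Lam peak was 5.84 kb away. Tmem161b stood at 40.0 in DCA (71 reads), 9.43 in Sham (47 reads) and 15.5 in SNA (63 reads), and its nearest Lam peak was 124 kb away. Yaf2, a partner of Polycomb proteins, stood at 31.9 in DCA (55 reads), 2.88 in Sham (28 reads) and 2.39 in SNA (34 reads). These 3 starts had a peak after both axotomies and after Sham, and none after Lam.

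Slc5a6, the sodium-dependent vitamin transporter, and Atraid share a divergent promoter and 1 DCA peak of 30.4 (55 reads), with 5.80 in Sham (33 reads) and 10.2 in SNA (59 reads). Apaf1, the scaffold of the apoptosome, and Ikbip likewise share a peak of 27.2 in DCA (53 reads), 4.81 in Sham (36 reads) and 3.76 in SNA (60 reads). Dgcr8, which pairs with Drosha to process microRNA precursors, had 28.1 in DCA (54 reads), 3.31 in Sham (39 reads) and 2.76 in SNA (52 reads). Plekha1 (28.2), Eri3 (27.7) and Otub2 (27.3) completed the 15, together with 2310061I04Rik (37.4). Plekha1 had 61 reads in DCA and 66 in SNA, and Otub2 57 in DCA and 59 in Sham. At Slc5a6 with Atraid, Apaf1 with Ikbip, Plekha1 and Otub2 another list thus held more reads at the summit than DCA, whatever the −log10 p. A pair that shares a peak is 1 measurement of the mark and not 2.

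The 12 Lam-only genes with the highest −log10 p reached 9.81 to 6.76 in Lam. They included Ss18, Tmem29, Xdh, Dlgap5, Gcsam, Eln, Ccna2, Plekhg4, Ankef1, Cd28 and D630023F18Rik. For Ss18, Xdh, Dlgap5, Eln, Ccna2 and Cd28 no strand was known, and either end of the gene stood for its start. At Ss18, a subunit of BAF chromatin remodellers, and at Gcsam the peak reached a DCA peak outside the window. Of the 12, 3 were also in Sham and 6 in SNA. Xdh, xanthine dehydrogenase of purine breakdown, stood at 7.99 in Lam (32 reads) and 4.93 in SNA (26 reads). Eln, which encodes elastin, stood at 7.41 in Lam alone. Ccna2, cyclin A2 of the dividing cell, stood at 7.20 in Lam (32 reads) and 5.72 in SNA (33 reads).

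Genes present in both control surgeries and absent after DCA numbered 47, and the 8 strongest in Lam included Tmem29, Dlgap5, Strip2, Neil3, Cyb5r2, Diaph3 and Myrf. Of the genes named here, Dlgap5 and Myrf had no known strand, and either end stood for the start. One read weighs less in Sham and SNA than in Lam, so reads at the summit are given too. Tmem29 stood at 8.37 in Lam (29 reads), 2.76 in Sham (22 reads) and 2.96 in SNA (23 reads). Dlgap5, a protein of the mitotic spindle, stood at 7.79 in Lam (29 reads) and 3.76 in Sham (27 reads). Neil3, a DNA glycosylase of base excision repair, had 6.46 in Lam (32 reads), 3.45 in Sham (24 reads) and 4.20 in SNA (23 reads). Myrf, a transcription factor needed for central myelin, had 5.87 in Lam (37 reads) and 3.53 in Sham (34 reads), and a DCA peak lay 2.05 kb away. At the other 7 the nearest DCA peak was 5.90 to 167 kb away. Each of these 8 starts was open in the ATAC lists of both Lam and DCA, and each Lam peak rested on 25 to 37 reads at its summit.

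Promoter sequences of RefSeq (GRCm38.p6, windows of 300 bases that end 50 bases after the start) are shown for 4 DCA-only and 4 Lam-only genes named above, chosen by hand as examples among the genes whose start peak touched no peak of the other list. Capitals mark matches, on either strand, to any of 8 motifs. These are the cyclic AMP response element TGACGTCA, the motif TGANTCA of AP-1 factors, the box CCAAT, the GC box GGGCGG bound by Sp1-type factors, the TATA box TATAAA, the E box CACGTG, the motif CCGGAAG of ETS factors and the motif TGATGCAA of ATF4. Overlapping matches run together. The DCA-only promoters are Map3k20 at chr2:72285451-72285750 on the plus strand, Fzr1 at chr10:81378321-81378620 on the minus strand, Slc5a6 at chr5:31048513-31048812 on the minus strand and Apaf1 at chr10:91082694-91082993 on the minus strand.
Map3k20: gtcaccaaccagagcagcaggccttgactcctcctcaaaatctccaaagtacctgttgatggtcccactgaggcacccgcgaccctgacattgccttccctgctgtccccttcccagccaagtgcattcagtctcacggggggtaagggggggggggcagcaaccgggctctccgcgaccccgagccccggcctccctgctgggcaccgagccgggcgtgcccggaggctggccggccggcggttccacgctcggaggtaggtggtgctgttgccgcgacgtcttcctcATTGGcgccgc
Fzr1: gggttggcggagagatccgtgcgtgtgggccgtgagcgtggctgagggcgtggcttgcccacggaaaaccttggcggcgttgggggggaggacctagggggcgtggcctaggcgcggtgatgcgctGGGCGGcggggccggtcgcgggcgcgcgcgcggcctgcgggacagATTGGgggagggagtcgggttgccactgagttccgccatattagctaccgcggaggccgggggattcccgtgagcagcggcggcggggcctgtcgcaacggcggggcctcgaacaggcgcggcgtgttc
Slc5a6: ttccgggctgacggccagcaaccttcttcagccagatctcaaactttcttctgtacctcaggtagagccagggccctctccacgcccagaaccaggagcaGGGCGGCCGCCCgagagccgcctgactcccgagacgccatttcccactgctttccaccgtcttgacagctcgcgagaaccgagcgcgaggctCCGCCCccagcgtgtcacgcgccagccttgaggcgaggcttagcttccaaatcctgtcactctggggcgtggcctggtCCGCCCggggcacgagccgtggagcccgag
Apaf1: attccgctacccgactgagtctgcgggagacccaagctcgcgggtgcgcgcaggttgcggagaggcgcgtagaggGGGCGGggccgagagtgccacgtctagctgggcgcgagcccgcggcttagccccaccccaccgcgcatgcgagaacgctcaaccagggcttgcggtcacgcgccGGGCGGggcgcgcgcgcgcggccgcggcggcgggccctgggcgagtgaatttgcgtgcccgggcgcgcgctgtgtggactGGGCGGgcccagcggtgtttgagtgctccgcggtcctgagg
The Lam-only promoters are Ankef1 at chr2:136532071-136532370 on the plus strand, Strip2 at chr6:29916763-29917062 on the plus strand, Neil3 at chr8:53639016-53639315 on the minus strand and Diaph3 at chr14:87141175-87141474 on the minus strand.
Ankef1: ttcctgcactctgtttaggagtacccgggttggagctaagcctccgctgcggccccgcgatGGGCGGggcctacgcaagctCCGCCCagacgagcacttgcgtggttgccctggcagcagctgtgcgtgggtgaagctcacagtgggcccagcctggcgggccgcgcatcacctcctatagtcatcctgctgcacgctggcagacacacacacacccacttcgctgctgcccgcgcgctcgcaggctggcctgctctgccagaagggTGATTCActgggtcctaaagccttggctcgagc
Strip2: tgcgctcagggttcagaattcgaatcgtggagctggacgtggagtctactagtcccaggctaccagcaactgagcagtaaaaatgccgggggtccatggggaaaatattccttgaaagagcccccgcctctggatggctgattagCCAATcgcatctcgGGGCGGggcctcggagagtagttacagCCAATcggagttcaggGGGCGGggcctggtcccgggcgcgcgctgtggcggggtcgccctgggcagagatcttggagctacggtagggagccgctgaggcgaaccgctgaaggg
Neil3: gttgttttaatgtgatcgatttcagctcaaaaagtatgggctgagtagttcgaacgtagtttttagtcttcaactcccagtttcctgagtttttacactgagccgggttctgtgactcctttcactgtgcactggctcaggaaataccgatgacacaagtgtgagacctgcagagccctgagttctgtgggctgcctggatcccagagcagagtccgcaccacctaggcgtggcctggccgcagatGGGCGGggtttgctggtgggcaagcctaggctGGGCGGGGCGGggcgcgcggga
Diaph3: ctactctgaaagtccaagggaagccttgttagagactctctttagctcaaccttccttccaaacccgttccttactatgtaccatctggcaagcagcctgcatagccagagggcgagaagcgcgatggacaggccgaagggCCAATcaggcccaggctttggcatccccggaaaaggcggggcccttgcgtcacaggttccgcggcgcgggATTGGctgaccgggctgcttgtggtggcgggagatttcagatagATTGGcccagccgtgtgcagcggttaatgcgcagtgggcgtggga
The 4 DCA-only promoters hold 22, 40, 26 and 46 CpG dinucleotides in the order shown, and the 4 Lam-only ones 21, 22, 14 and 18. Map3k20 and Slc5a6 each have another start window in the table, with 16 and 23 CpG dinucleotides, and the 8 examples do not stand for their classes.

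Over all 21263 promoters of known strand, CpG content followed the list in which the start carried H3K9ac. The median was 22 CpG dinucleotides where both lists had a peak, 16 where only DCA had one (2057 promoters), 9 where only Lam had one (136) and 3 where neither had one. A ratio of observed to expected CpG above 0.6 was found in 75.4%, 50.3%, 35.3% and 11.2% of the 4 classes. The DCA-only starts lay between the shared and the unmarked starts on this scale. The GC box was in 67.1% of shared, 57.0% of DCA-only and 40.4% of Lam-only promoters, against 46.2% of all promoters. The ETS motif was in 19.3%, 7.05% and 5.15%, against 11.6% of all. AP-1 was in 4.48%, 5.25% and 3.68%, against 6.99% of all, and TATA in 5.83%, 8.60% and 17.6%, against 12.6%. The cyclic AMP response element was in 3.35%, 1.90% and 2.94% (2.23% of all), CCAAT in 37.1%, 36.5% and 41.2% (38.2%), the E box in 10.2%, 8.65% and 6.62% (7.84%) and ATF4 in 0.502%, 0.389% and 1.47% (0.865%).

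Gene lists for the ganglion and its injury were read against the 9.43% of all genes that had a start peak in DCA only. The share was highest for synaptic vesicle and presynaptic genes (13 of 39, 33.3%), axon guidance ligands and receptors (15 of 47, 31.9%), potassium channels (14 of 44, 31.8%) and voltage-gated sodium and calcium channels (9 of 30, 30.0%). Between the control surgeries, where 5.32% of all genes had a peak in Lam and not in Sham and 4.36% the reverse, the counts were 6 and 7 of 47 for axon guidance genes, 3 and 1 of 39 for synaptic genes, 3 and 4 of 44 for potassium channels and 2 and 1 of 30 for sodium and calcium channels. The axon guidance and potassium channel lists were thus above the share of all genes in both directions of the control pair too. The synaptic list and the sodium and calcium channel list were above it for Lam without Sham and below it for the reverse. Lists of genes used by every cell had few DCA-only genes, with 1 of 64 oxidative phosphorylation genes, 2 of 39 proteasome and ubiquitin genes and 3 of 78 cytosolic ribosomal protein genes, but nearly all of their genes had a Lam peak and could not be DCA-only. Among genes without a Lam peak at the start, 19.3% of all genes (2065 of 10711) had one in DCA. By this measure the order of the lists changed: 1 of 1 oxidative phosphorylation gene, 2 of 2 proteasome genes, 2 of 2 chaperone genes and 3 of 4 ribosomal protein genes had a DCA peak, then 66.7% of ATF, CREB and C/EBP factors (4 of 6), 63.6% of SMAD, BMP and TGF-beta genes (7 of 11), 62.5% of axon guidance genes (15 of 24), 62.5% of MAP kinase, PI3K and mTOR genes (5 of 8), 50.0% of synaptic genes (13 of 26), 43.8% of potassium channels (14 of 32) and 37.5% of sodium and calcium channels (9 of 24). The neuronal lists therefore led in the share of all their genes and not in the share of genes that lacked a Lam peak. By the rule for strong peaks, which 5.03% of all genes passed in the DCA direction, 12 of 47 axon guidance genes, 6 of 39 synaptic genes, 5 of 44 potassium channel genes and 6 of 30 sodium and calcium channel genes did. Of the DCA-only genes named from the lists, Cacna1a, Kcnd1, Ntrk2, Efnb1 and Hoxb8 had a start peak that reached a Lam peak beyond the 1 kb window.

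**Figure D4:**
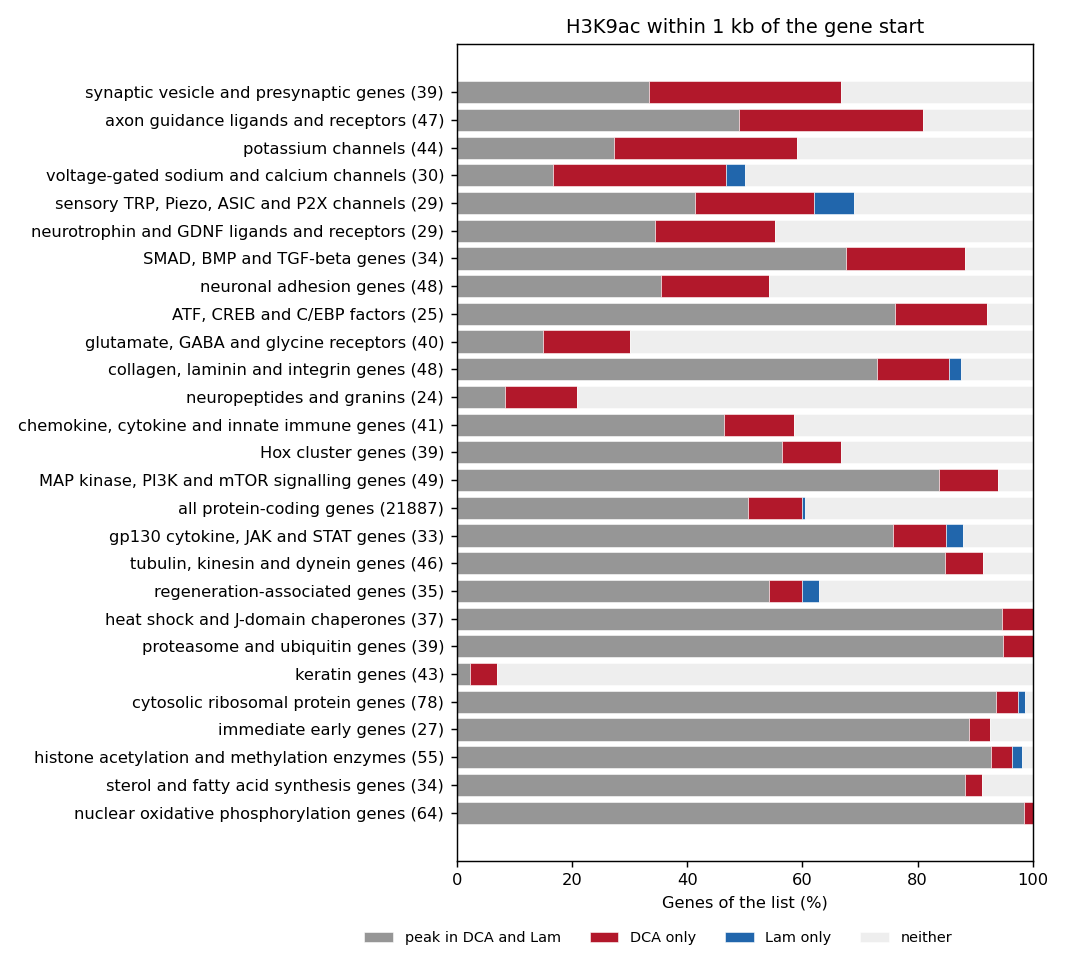
Share of the genes of each list (y axis, with the number of genes) that had an H3K9ac peak within 1 kb of the start in DCA and Lam, in DCA only, in Lam only or in neither (x axis, percent). The red DCA-only segment takes 9.43% of all protein-coding genes, 33.3% of the synaptic list and 1.56% of the oxidative phosphorylation list.

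The −log10 p values of different lists that follow are set side by side to show in which lists a start had a peak, and they give no order between lists. Among axon guidance genes, Plxna4, a semaphorin receptor, stood at a −log10 p of 22.1 in DCA and in no other list. Sema7a, a membrane-bound semaphorin, stood at 16.6 in DCA and 4.56 in SNA. Ephb2, an ephrin receptor, stood at 12.4 in DCA and 5.86 in Sham. The ephrin Efnb1 (11.6 in DCA) and the netrin Ntn1 (11.6) were present in Sham and SNA too, so that the Lam list was the one without them. In the same list 23 genes had a peak in both DCA and Lam and 9 in neither.

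In the synaptic list the leading DCA-only genes were absent from all other lists: Rims1, an active zone scaffold, at 12.4, Sv2a, a vesicle glycoprotein, at 9.45, Syt7, a calcium sensor of release, at 9.36, Slc17a7, the vesicular glutamate transporter VGLUT1, at 8.81, and Erc2, another active zone protein, at 8.10. The potassium channels were led by Kcnk2, a leak channel of the K2P family, at 17.8 in DCA and 4.20 in SNA. Kcna3, a Shaker-type channel, followed at 15.2 in DCA alone, and Kcnd3, an A-type channel, at 13.4 in DCA and 4.87 in Sham. Kcnd1 (10.9) and Kcnq5 (8.10) were the next.

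Among the sodium and calcium channels, the calcium channel pore subunits Cacna1a (13.8), Cacna1c (13.0) and Cacna1g (11.0) were in DCA alone. Scn2a ran the other way, at 4.74 in Lam, 3.45 in Sham and 7.96 in SNA with no DCA peak. The list of sensory TRP, Piezo, ASIC and P2X channels had 6 of 29 genes in DCA only, led by Trpv4 at 10.9 and including the heat and capsaicin receptor Trpv1 at 6.47, and 2 in Lam only, P2rx2 at 5.06 and P2rx6 at 2.82. A further 15 of 30 sodium and calcium channel genes had no peak at the start in DCA or Lam.

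Growth factor and morphogen pathways were next. SMAD, BMP and TGF-beta genes had 7 of 34 in DCA only (20.6%). Smad3, which carries TGF-beta signals to the nucleus, stood at 22.0 in DCA alone, Smad2 at 18.2 in DCA and 4.97 in Sham, the ligand Bmp7 at 11.3 in DCA, 7.11 in Sham and 6.63 in SNA, and the receptor Bmpr1b at 9.53 in DCA and 4.20 in SNA. Neurotrophin and GDNF genes had 6 of 29 in DCA only (20.7%). Ntrk2, the BDNF receptor TrkB, stood at 10.5 in DCA alone, while the ligand Artn was at 8.06 in DCA, 4.83 in Sham and 4.95 in SNA, and the receptor Ngfr at 7.31 in DCA and 3.78 in Sham. Both lists exceeded the 9.43% of all genes. Between the control surgeries 3 of 34 SMAD, BMP and TGF-beta genes had a peak in Lam and not in Sham, and 3 the reverse. For neurotrophin and GDNF genes the counts were 2 and 3 of 29. Both lists were thus above the shares of all genes in the control pair too (5.32% and 4.36%).

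Lists of genes known to respond to axon injury differed in their counts. Of 35 regeneration-associated genes 2 were DCA-only (5.71%), Gadd45a at 11.7 in DCA, 5.63 in Sham and 7.63 in SNA, and the neuropeptide Npy at 3.60 in DCA alone, while Basp1, a growth cone membrane protein, was Lam-only at 4.83. A start peak in both lists was found for 19, among them Atf3 (10.1 in Lam and 11.1 in DCA) and Jun (7.56 and 20.6), which are named here after their values were seen. Gap43, also named after the fact, had no start peak in any of the 4 lists, and 2 DCA peaks between its ends against 0 in Lam. Of 27 immediate early genes 24 were in both lists and Arc alone was DCA-only, at 9.46 in DCA, 8.65 in Sham and 4.26 in SNA. The ATF, CREB and C/EBP factors had 4 of 25 in DCA only (16.0%): Batf3 (8.67), Creb3l1 (8.10) and Batf (4.94) in DCA alone and Batf2 at 7.96 with peaks in Sham and SNA.

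Inflammatory and support genes stood near the background. Chemokine, cytokine and innate immune genes had 5 of 41 in DCA only (12.2%), with Tlr2, a pattern receptor, at 17.0 in DCA, 6.66 in Sham and 4.13 in SNA and the chemokine Ccl2 at 7.45 in DCA and 3.50 in SNA. The gp130 cytokine, JAK and STAT list had 3 of 33 (9.09%), Il11 at 11.1, Socs2 at 7.61 and Lif at 4.35, all in DCA alone, and Stat4 in Lam only at 3.41. Collagen, laminin and integrin genes had 6 of 48 (12.5%), with Fn1, fibronectin, at 8.68 in DCA and 4.14 in Sham, and Itga8 in Lam only at 5.84. Hox cluster genes had 4 of 39 (10.3%), Hoxd9, Hoxd8, Hoxb8 and Hoxb3 at 15.6 to 9.75. MAP kinase, PI3K and mTOR signalling genes had 5 of 49 (10.2%). Among genes without a Lam peak, where all genes had 19.3%, these lists did not stay together. The immune list had 5 of 22 (22.7%) and the Hox list 4 of 17 (23.5%). The gp130 list had 3 of 7 (42.9%), the collagen list 6 of 12 (50.0%) and the MAP kinase list 5 of 8 (62.5%).

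Neuronal adhesion genes had 9 of 48 in DCA only (18.8%, above the 9.43% of all genes). They were led by Adgrl1, a latrophilin, at 20.4 in DCA alone. Glutamate, GABA and glycine receptor genes had 6 of 40 (15.0%), led by Gabbr1, a GABA-B receptor subunit, at 13.1 in DCA alone. Among genes without a Lam peak, where all genes had 19.3%, the shares were 29.0% (9 of 31) and 17.6% (6 of 34). The receptor list was thus below all genes by that measure. Between the control surgeries 5 adhesion and 4 receptor genes had a peak in Lam and not in Sham, and 3 and 2 the reverse. Both lists were above the shares of all genes there (5.32% and 4.36%). Neuropeptides and granins had 3 of 24 in DCA only, among them Calca, which encodes CGRP, at 8.10 in DCA and 6.50 in SNA. Tubulin, kinesin and dynein genes had 3 of 46, chaperones 2 of 37, keratins 2 of 44 with 1 symbol unmatched, sterol and fatty acid synthesis genes 1 of 34 and histone acetylation and methylation enzymes 2 of 55, with Hdac6 in Lam only at 5.65. Endothelial and pericyte, fibroblast and macrophage markers had 1 DCA-only gene each, of 12, 10 and 12, spinal cord glia 2 of 10, Schwann cell markers 2 of 12 (Ncmap and Gldn) and satellite glia and blood markers 0 of 10 each. The 4 DCA-only sensory neuron markers of 20 were Ntrk2, Uchl1, Calca and Trpv1. The part of cell makeup in the calls of any list was not tested.

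Of the DCA-only peaks 64.2% lay inside a gene, against 56.6% of all DCA peaks and 48.9% of all Lam peaks. The share was 67.3% for Lam-only peaks and 59.5% for Lam peaks absent from Sham, so it was raised among unmatched peaks of the other comparisons too. The genes with the largest net numbers were long. Of 21887 genes 7976 (36.4%) had more peaks between their ends in DCA than in Lam and 1684 (7.69%) had fewer, beside 4258 (19.5%) with more and 3873 (17.7%) with fewer in Lam than in Sham. In genes of up to 10 kb the DCA list held 1.39 times as many peaks as the Lam list, and in genes of 30 to 100 kb 1.74 times. The ratio was 1.85 in genes of 100 to 300 kb and 1.82 in longer ones. Per Mb of gene the numbers were 152 against 109 in the shortest class and 67.7 against 36.7 in the class of 100 to 300 kb. In genes above 300 kb they were 22.5 against 12.3. The Sham list had 117, 35.4 and 10.8 peaks per Mb in these classes. Lam was thus below Sham in the shortest class and above it in the longer ones, so the control pair shifted with gene length too.

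Gse1, a protein of HDAC1-containing corepressor complexes, had 138 peaks in DCA, 47 in Lam, 76 in Sham and 108 in SNA along 353 kb, the largest net number of all genes. Msi2, an RNA-binding protein of progenitor cells, had 136, 48, 73 and 125 in the same order, and Prkce, protein kinase C epsilon, which sensitises nociceptors, 113, 47, 60 and 105. Cux1, a homeodomain factor, had 118 in DCA against 57 in Lam. The next were Dip2b, Sh3pxd2a, Arhgap26, Tead1, the Hippo pathway factor, Syn3, a synapsin, and Gas7, with 45 to 54 more peaks in DCA than in Lam. In all 10 genes Lam had the fewest peaks of the 4 lists, 4 to 34 fewer than Sham, and SNA had 23 to 52 more than Sham. The 10 were picked by DCA minus Lam, so a low Lam count was favoured by the choice and is no separate result. SNA held more peaks than DCA at Sh3pxd2a (113 against 110) and Syn3 (118 against 112). At Gse1 the Lam list covered 22.7 kb, Sham 37.2 kb, SNA 60.7 kb and DCA 100.1 kb.

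The 5 genes with the smallest net number were Caskin2, Mink1, Scd2, Nr2f2 and Tbx2, with 5 to 7 fewer peaks in DCA than in Lam. Caskin2 had 2 peaks in DCA and 9 in Lam, but these covered 7.96 kb in DCA and 4.29 kb in Lam. At Mink1, a Ste20-family kinase, 20 DCA peaks covered 24.9 kb and 27 Lam peaks 12.9 kb. Scd2, a stearoyl-CoA desaturase, Nr2f2 (COUP-TFII) and Tbx2, a T-box factor, likewise had a larger covered length in DCA. Fewer peaks at these 5 genes thus went with wider ones, and none of the 5 had less acetylated length after DCA.

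**Figure D5:**
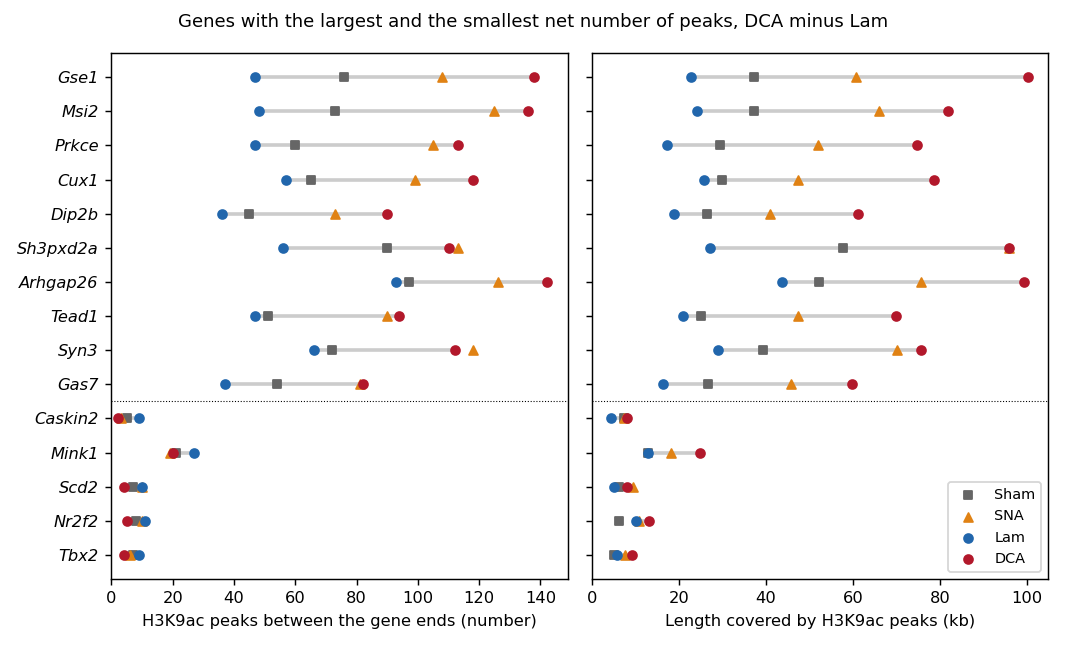
Number of H3K9ac peaks between the ends of a gene (left, x axis) and length they cover (right, kb) in the 4 lists, for the 10 genes with the largest net number (DCA minus Lam) and, below the dotted line, the 5 with the smallest. The blue Lam points are leftmost in both panels for the upper 10 (Gse1 47 peaks, 22.7 kb), while the lower 5 have fewer peaks but more covered length in DCA than in Lam (Caskin2 7.96 kb against 4.29 kb). The choice by DCA minus Lam favours a low Lam count in the upper 10.

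Across the genome, cut into 500 kb bins, 3001 of 3683 bins with a peak held more DCA than Lam peaks and 312 held fewer, beside 1835 with more and 1205 with fewer Lam than Sham peaks. The bin with the largest net number was chr8:120000001-120500000, which overlaps Gse1 and holds Crispld2, Zdhhc7 and others, at 166 peaks in DCA, 50 in Lam, 92 in Sham and 133 in SNA. The next were chr4:149500001-150000000 round Clstn1 and Pik3cd (136 in DCA against 47 in Lam) and the adjoining bins chr10:80500001-81000000 and chr10:80000001-80500000, gene-dense stretches with Gadd45b and Dot1l in the former (146 against 58) and Stk11 and Mbd3 in the latter (148 against 64), then chr7:28500001-29000000 with Sirt2 and Actn4 (156 against 72). The smallest net number was at chr10:53500001-54000000, with Mcm9 and Man1a, at 17 in DCA, 25 in Lam, 12 in Sham and 19 in SNA. The share of DCA peaks without a Lam peak was 59.2% to 63.6% on the autosomes and 50.3% (46.6 to 53.9%) of 720 peaks on the X chromosome. The X chromosome stood apart from the autosomes between the control surgeries as well, with 58.8% of Lam peaks lacking a Sham peak (36.1% to 43.9% on the autosomes) and 30.1% of Sham peaks lacking a Lam peak (37.8% to 45.3%).

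Outside genes, the 4 strongest DCA-only peaks were 936 to 1084 bp wide. The strongest, at chr9:96536555-96537592, was 1.71 kb from Rasa2, a RasGAP, at a −log10 p of 31.8 and 7.50-fold, and it overlapped peaks of Sham, SNA, both H3K27ac lists and both ATAC lists. The others were 3.60 kb from BC035044 (23.6), 83.8 kb from Mkln1 (23.3) and 18.6 kb from Igip (22.9), and all 4 were open after DCA. The peak near BC035044 was 0.199 kb from a Lam peak. The 4 strongest Lam-only peaks outside genes were 309 to 411 bp wide at −log10 p of 10.8 to 9.17. They lay 13.6 kb from Trmt9b, 42.0 kb from Lrrc74a, 16.3 kb from Dbpht2 and 44.2 kb from Egflam. All 4 overlapped an SNA peak and 1, that of Trmt9b, a Sham peak.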

How the data were processed

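ChIP-seq peaks of H3K9ac were analysed after 4 surgeries (2 samples each, pooled), with the H3K27ac and ATAC lists of Sham, Lam and DCA as further readouts, 10 of 16 lists in the series. Per the labels the replicates of a condition were pooled into 1 list, and mm10 is the genome build named in the submitters' processing notes. The aligner, the peak caller and its settings are not given in the sources used here. The deposited fold of each peak is the authors' ratio of its summit to the local background. The −log10 p and −log10 q are the authors' values for each peak in the deposited lists, used to rank or filter peaks within a list and to recover reads. The score column of the deposited lists was not used.

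Peaks were compared by overlap of 1 bp. RefSeq (GRCm38.p6) gave a start and strand for 17492 of 21887 protein-coding genes on the autosomes, X and Y, and for the other 4395 either end of the gene was used. The window was 1 kb. Of 1164 symbols in 26 pathway and 9 marker lists 1163 were matched. No depth of a single sample could be read from the lists, and no test between surgeries was possible with 1 list each. Scripts used Python 3.11.15, pandas 2.3.3, numpy 2.4.6 and scipy 1.17.1, and overlap and read recovery were tested on simulated data.

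Named genes were the 12 strongest at the start in each direction, the 8 strongest in Lam and Sham but not DCA, up to 5 of each direction in each list, the 10 and 5 extremes of net peak number, 4 peaks outside genes in each direction and 5 bins of each direction. The members, the lists and these rules were chosen with earlier results of these data known. Alternatives covered the −log10 q limit, list size, scaled background, overlap rule and start window. Setting strong peaks against all peaks, and leaving out starts whose peak reaches the other list, were added after the data had been seen. Some genes that these rules name are not reported here.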

Additional observations from a re-analysis of the deposited data

How the results depend on the processing

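No paired analysis was possible because the replicates of each surgery were pooled into 1 list, and for the same reason no replicate could be left out. Matching the scaled backgrounds of the lists changed the DCA-only share to 61.6% and the DCA-only gene count to 2050. It is a weak check, since the lowest −log10 p of the Lam list, 2.03, is a lax limit. Of the shares between the lists only Sham without Lam moved with it, to 44.9%. The other settings are given in the order DCA without Lam, Lam without DCA, Lam without Sham and Sham without Lam. The shares were 84.5%, 3.87%, 78.6% and 31.2% under a −log10 q limit of 5, which fewer peaks reach in the list of lower scaled background. They were 82.2%, 68.5%, 66.2% and 66.0% with reciprocal overlap of 50%. When peaks within 1 kb also counted as shared they were 45.3%, 9.39%, 25.2% and 27.7%. For strong peaks against all they were 35.1%, 9.38%, 9.30% and 12.6%, with a stricter limit in the pair with Sham. Equal list sizes gave 45.9% and 31.2% for DCA and Lam. The share of DCA-only peaks at a gene start was 26.2% with the −log10 q limit, 13.4% with equal sizes, 15.2% with reciprocal overlap, 7.45% with the 1 kb allowance and 24.7% with a window of 5 kb. Genes with a start peak in DCA only numbered 6868 with the −log10 q limit and 1102 with strong peaks, those in Lam only 25, 44 and, with equal sizes, 399. Genes in Lam and not in Sham numbered 3599 and 195, and in Sham and not in Lam 533 and 238, under the −log10 q limit and for strong peaks. The cause of these shifts was not tested beyond the construction of each setting. With the −log10 q limit Lam without Sham came near DCA without Lam, so that limit does not separate the axotomy from the background. The 5 kb window kept the DCA-only gene count at 1970, and leaving out starts whose peak reaches the other list kept it at 1966.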
